A study of Rattus norvegicus with 18 samples.

Results

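Krt8, Krt18, Epcam, Cldn3, Tjp1, Cdh16, Spint2, Tspan8 and Cd9 are genes of the epithelial cytoskeleton, of cell junctions and of the epithelial cell surface. They were read from every probe set that the platform annotation maps to 1 of these symbols, which gave 12 of the 8740 probe sets tested and 9 of the 4736 genes with a probe set of their own. The 9 genes were selected from measured values of these arrays, namely their difference between the lines without hormone and their change after 17 h of thyroid-stimulating hormone (TSH) in FRTL5. Those contrasts are therefore descriptions with no test, and so are the line difference at 17 h and the difference of the 17 h changes, which contain the same arrays. The other TSH contrasts were tested, and they share basal arrays with the selection. The line difference at 30 min was tested on other arrays, but it repeats the difference that chose the genes and gives no independent support for it.

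The arrays were 1-colour Affymetrix arrays hybridised with biotin-labelled cRNA from cultures of established rat thyroid cell lines. FRT/TSHR is described by its labels as de-differentiated, and its name states that it carries the TSH receptor. FRTL5 is described as differentiated. Each line had a basal group without TSH, a group given bovine TSH for 30 min and a group given it for 17 h, with 3 biological replicates in each of the 6 groups and 18 arrays in all. FRT/TSHR cells were grown in Coon's modified F12 medium and received TSH at 1 U/L, whereas FRTL5 cells spent 5 days in the TSH-free medium 5H and their TSH was at 0.1 U/L. Serum was withdrawn from both lines 12 h before stimulation. Line, medium and TSH dose thus changed together and cannot be told apart, and no group was held for either time without TSH. The labels do not say which receptor construct FRT/TSHR carries or whether the line is 1 clone. Values are log2 expression values that the authors made with robust multi-array averaging (RMA), so a difference of 1 is a factor of 2. In cultures, fewer cells that express a gene and less RNA per cell cannot be told apart.

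Keratins 8 and 18 pair to form the intermediate filaments of simple epithelia, and thyroid follicular cells belong to this type. Claudins seal the paracellular space at tight junctions, Tjp1 (ZO-1) is the scaffold that ties claudins to actin, and cadherins join neighbouring cells. Epcam, the tetraspanins Cd9 and Tspan8 and the protease inhibitor Spint2 lie in the plasma membrane, where they bear on adhesion and on the activity of surface proteases. FRT cells are known for growing as polarised, tight monolayers.

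RefSeq promoter windows were available for 8 of the 9 genes, each running from 250 bases before to 50 bases after an annotated start in build GRCr8. Cdh16 had no entry. The windows of the 4 genes with the widest gap between the lines, Krt8, Krt18, Epcam and Tspan8, are shown here, followed by that of Spint2, which differed in the other direction. Capitals mark the E-box CAGGTG or CACCTG, the letters that Snai and Zeb repressors bind, and the GC box GGGCGG or CCGCCC, the letters that Sp1-type factors bind.
Krt8, chr7:135010290-135010589, minus strand: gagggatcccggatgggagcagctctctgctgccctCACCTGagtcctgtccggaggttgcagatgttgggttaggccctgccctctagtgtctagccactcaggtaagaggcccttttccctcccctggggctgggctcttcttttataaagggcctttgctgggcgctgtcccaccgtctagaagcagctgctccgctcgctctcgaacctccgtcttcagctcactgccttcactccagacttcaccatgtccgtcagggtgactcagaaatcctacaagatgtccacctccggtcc
Krt18, chr7:135035918-135036217, plus strand: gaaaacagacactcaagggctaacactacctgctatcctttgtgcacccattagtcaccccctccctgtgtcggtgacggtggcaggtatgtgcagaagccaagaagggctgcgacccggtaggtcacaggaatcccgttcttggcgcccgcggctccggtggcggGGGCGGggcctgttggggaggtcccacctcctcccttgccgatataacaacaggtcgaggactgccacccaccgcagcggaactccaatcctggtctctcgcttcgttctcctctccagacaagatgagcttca
Epcam, chr6:12649629-12649928, minus strand: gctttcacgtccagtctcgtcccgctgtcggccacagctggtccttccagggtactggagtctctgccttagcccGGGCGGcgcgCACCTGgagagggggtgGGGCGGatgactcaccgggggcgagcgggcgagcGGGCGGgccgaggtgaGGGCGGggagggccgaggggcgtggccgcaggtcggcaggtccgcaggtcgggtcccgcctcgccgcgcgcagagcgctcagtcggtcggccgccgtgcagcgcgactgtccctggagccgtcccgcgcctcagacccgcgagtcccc
Tspan8, chr7:53330937-53331236, plus strand: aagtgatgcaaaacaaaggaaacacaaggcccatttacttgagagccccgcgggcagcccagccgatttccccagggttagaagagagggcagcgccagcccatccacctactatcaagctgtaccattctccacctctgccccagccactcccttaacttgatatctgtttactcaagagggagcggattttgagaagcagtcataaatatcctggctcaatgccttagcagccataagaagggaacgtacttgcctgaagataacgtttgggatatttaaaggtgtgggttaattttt
Spint2, chr1:93708042-93708341, minus strand: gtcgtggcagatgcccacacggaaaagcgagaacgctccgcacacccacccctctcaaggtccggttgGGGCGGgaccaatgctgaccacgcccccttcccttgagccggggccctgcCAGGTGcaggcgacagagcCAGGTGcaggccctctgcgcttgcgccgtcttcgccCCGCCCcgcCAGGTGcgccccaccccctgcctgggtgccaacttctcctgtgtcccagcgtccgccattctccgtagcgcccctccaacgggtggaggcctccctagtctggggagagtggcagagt

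The E-box was found once in the windows of Krt8 and Epcam, 3 times in that of Spint2, and 0 times in those of Krt18 and Tspan8. Among all 33469 promoter windows of the same length, 18.84% held at least 1 such E-box. Epcam had 4 GC boxes, Spint2 had 2 and Krt18 had 1, while 33.06% of all windows held at least 1. Tspan8 held neither motif, nor the looser CANNTG that was present in 72.1% of all windows. Both strands were read, and the CANNTG counts include the E-boxes. Of the windows not shown, Cldn3 held 1 E-box and 1 GC box, Cd9 held 1 E-box and 3 GC boxes, of which 1 overlapped the E-box, and Tjp1 held 0 of both. A match describes letters, and binding was not measured. Krt8 and Krt18 are neighbouring protein-coding genes on chromosome 7 in the RefSeq table.

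Some facts of the arrays bear on all results. The 3 FRTL5 arrays numbered 1 (basal, 30 min and 17 h) stood apart in the beta-actin control, whose 3' probe set exceeded its 5' probe set by 1.13 to 1.22 log2 units there, against -0.14 to 0.28 on the other 15 arrays. The Gapdh control ran the same way, at 0.55 to 0.63 against 0.03 to 0.30. Counts of members are therefore also given without those arrays. The lines carried their labels in the thyrocyte markers, since 5 of the 8 measured were lower in basal FRT/TSHR and 0 were higher: Tg, the thyroglobulin gene, was 7.04 log2 units lower, at 4.17 ± 0.19 in FRT/TSHR and 11.21 ± 0.70 in FRTL5 (SD, n = 3 each). Each gene of a list was read from its probe set of highest mean, and for 2 thyrocyte genes the others disagreed with it. Tshr, the TSH receptor gene, gave 0.04 on D38036_at, which did not pass, but was lower in FRT/TSHR on its 3 other probe sets, at -3.96, -2.15 and -0.81. Nkx2-1, a thyroid transcription factor, gave -1.24 on D38035cds_s_at, which did not pass, and -3.82 on X53858_at, which did. Detection above background was not measured, so a value near 3.5 or 5 may hold little or no specific signal, and a fold change against it describes these values only.

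Krt8 was far higher in FRT/TSHR than in FRTL5 on every array. Its log2 values were 10.30, 10.62 and 10.83 in basal FRT/TSHR, 10.29, 10.58 and 10.40 after 30 min of TSH and 10.04, 10.78 and 10.81 after 17 h. In FRTL5 they were 4.85, 5.06 and 5.06 at basal, 4.92, 4.90 and 5.04 at 30 min and 4.94, 5.15 and 4.87 at 17 h. The lines did not overlap at any time, and the TSH times of a line overlapped each other. At 30 min the difference was 5.47 ± 0.18 (SE, limma, adjusted p = 2.71e-12). The basal difference was 5.59, a factor of 48.2 and the tenth widest of the 8740 probe sets by size.

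Krt18, which encodes the type I partner of keratin 8, was measured by 2 probe sets drawn from different sequences, and both ran with Krt8. Probe set rc_AI072634_at read 9.13, 8.68 and 9.13 in basal FRT/TSHR, against 3.65, 3.74 and 3.92 in basal FRTL5. Probe set X81448cds_at read 8.84, 8.61 and 8.98 in basal FRT/TSHR, against 4.47, 4.35 and 4.68 in basal FRTL5. At 30 min the differences between the lines were 4.80 ± 0.20 (SE, limma, adjusted p = 3.75e-11) and 4.15 ± 0.20 (adjusted p = 2.66e-10). No array of FRT/TSHR came within the FRTL5 range on either probe set. The lowest FRT/TSHR values, 8.12 on the first and 7.81 on the second, both came from the 17 h culture numbered 1.

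Epcam, an epithelial adhesion molecule, read 9.75, 9.70 and 9.93 in basal FRT/TSHR, 9.96, 9.66 and 9.82 at 30 min and 9.99, 9.80 and 10.07 at 17 h. In FRTL5 it read 3.64, 3.57 and 3.62 at basal, 3.47, 3.34 and 3.62 at 30 min and 3.56, 3.85 and 3.60 at 17 h. The 9 arrays of a line spanned 0.41 log2 units in FRT/TSHR and 0.51 in FRTL5, so the arrays of a line lay far closer to each other than to those of the other line. At 30 min Epcam was higher in FRT/TSHR by 6.33 ± 0.11 (SE, limma, adjusted p = 2.16e-15).

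Tspan8, a tetraspanin of epithelial and tumour cell surfaces, showed the widest gap between the basal lines of all 8740 probe sets. It read 11.21, 11.29 and 11.79 in basal FRT/TSHR, 10.99, 11.06 and 11.80 at 30 min, and it averaged 11.27 ± 0.34 at 17 h (SD, n = 3). In FRTL5 it read 3.41, 3.59 and 3.60 at basal, 3.81, 3.65 and 3.70 at 30 min and 3.77, 3.56 and 3.40 at 17 h. FRT/TSHR replicate 3 was the highest at each time, and the lines did not overlap. The basal difference was 7.89, a factor of 238, and the 30 min difference was 7.56 ± 0.21 (SE, limma, adjusted p = 6.03e-13).

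**Figure D1:**
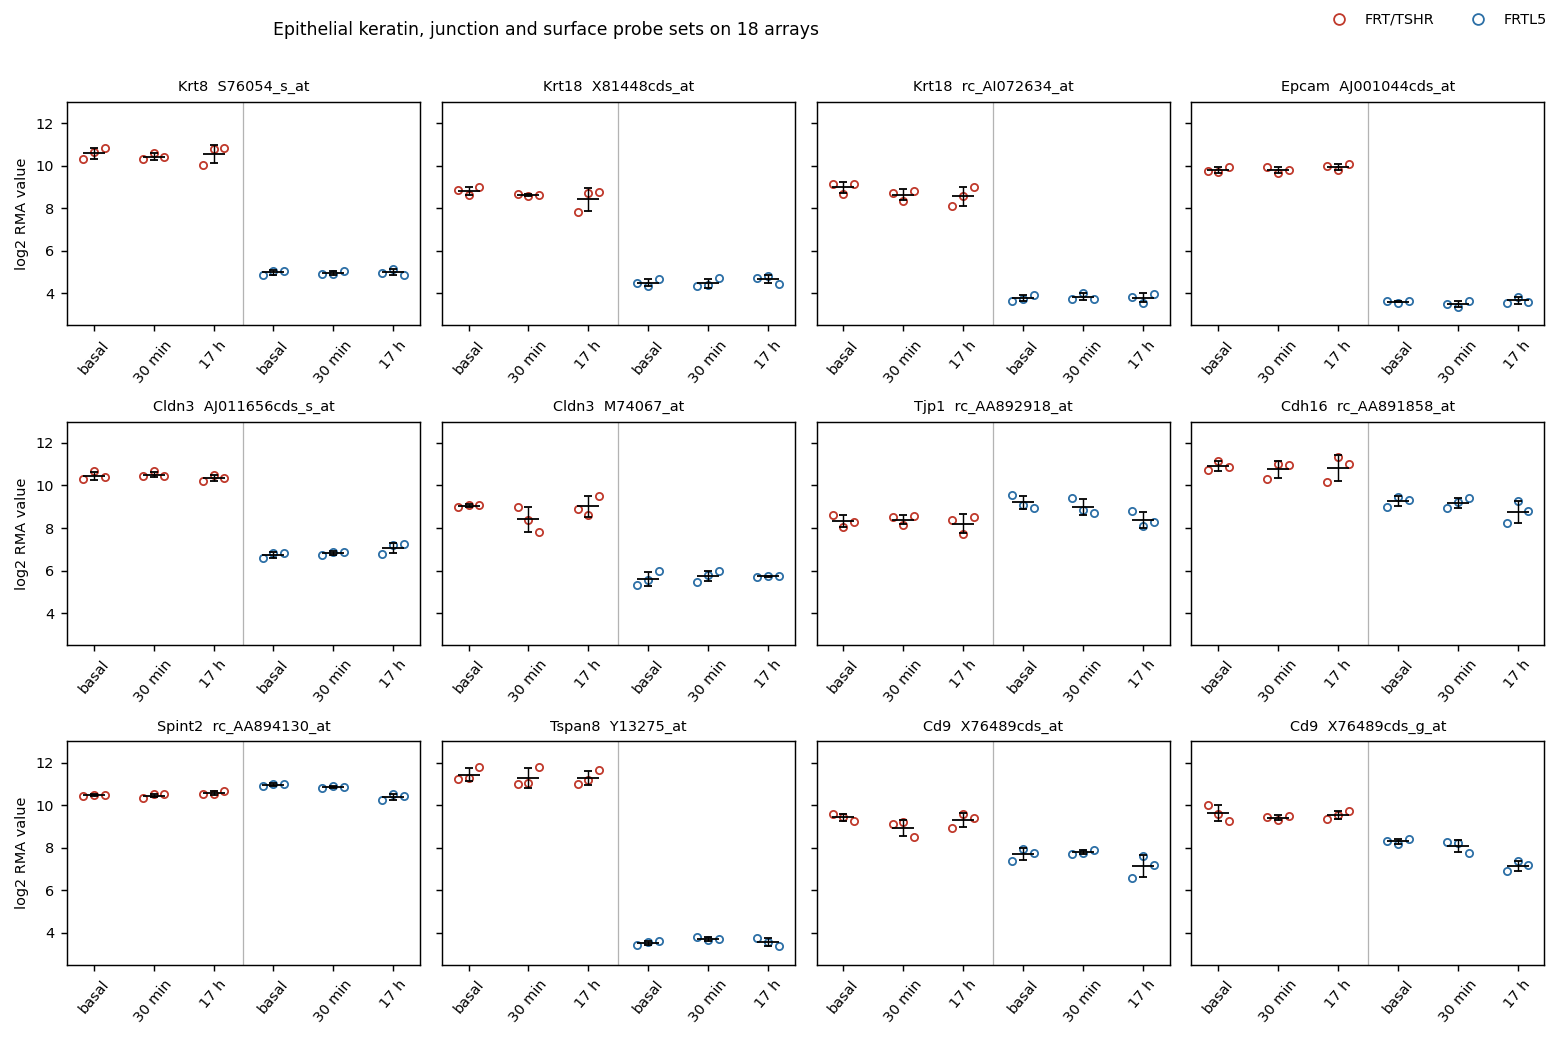
Log2 RMA values of the 12 probe sets on each of the 18 arrays, with FRT/TSHR (red) left of FRTL5 (blue) in every panel and the basal, 30 min and 17 h groups in order. Bars are the mean ± SD of 3 arrays. Krt8, both Krt18 probe sets, Epcam, Tspan8 and both Cldn3 probe sets sit well above FRTL5 in FRT/TSHR at all 3 times, while Tjp1 and Spint2 sit close together in the 2 lines.

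Among the junction genes, Cldn3, a sealing claudin, was higher in FRT/TSHR on both of its probe sets. AJ011656cds_s_at read 10.32, 10.68 and 10.38 in basal FRT/TSHR, against 6.58, 6.82 and 6.82 in basal FRTL5. M74067_at read 8.96, 9.09 and 9.07 in basal FRT/TSHR, against 5.32, 5.54 and 5.98 in basal FRTL5. At 30 min the line differences were 3.68 ± 0.13 (SE, limma, adjusted p = 6.98e-12) and 2.67 ± 0.26 (adjusted p = 9.91e-07). The second probe set was the less even of the pair in FRT/TSHR, where the 30 min group averaged 8.41 ± 0.58 and its lowest array read 7.83, against 9.04 ± 0.07 at basal (SD, n = 3 each).

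Cdh16, the kidney-specific cadherin that thyroid follicular cells also express, was higher in FRT/TSHR on both the basal and the TSH arrays. It read 10.71, 11.17 and 10.89 in basal FRT/TSHR and 8.98, 9.44 and 9.33 in basal FRTL5. At 30 min it averaged 10.75 ± 0.40 in FRT/TSHR and 9.19 ± 0.25 in FRTL5 (SD, n = 3 each). That difference of 1.57 ± 0.30 passed (SE, limma, adjusted p = 0.000774). The groups did not overlap at any time, although replicate 1 was the lowest of its group in FRT/TSHR at all 3 times and in FRTL5 likewise.

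Tjp1 ran the other way at basal, with lower values in FRT/TSHR. It read 8.62, 8.06 and 8.29 in basal FRT/TSHR, against 9.57, 9.09 and 8.95 in basal FRTL5, a difference of -0.87. At 30 min it read 8.52, 8.13 and 8.54 in FRT/TSHR and 9.40, 8.86 and 8.70 in FRTL5, and the difference of -0.59 ± 0.26 did not pass (SE, limma, adjusted p = 0.128, 95% interval -1.13 to -0.04), although the groups did not overlap. The basal call was lost when FRTL5 basal replicate 1 (-0.69), FRT/TSHR basal replicate 2 (-0.74) or FRT/TSHR basal replicate 3 (-0.86) was left out.

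Spint2, the Kunitz-type inhibitor of hepsin-like and matriptase-like surface proteases, was also lower in FRT/TSHR at the early times. It read 10.43, 10.48 and 10.50 in basal FRT/TSHR, against 10.90, 10.99 and 11.01 in basal FRTL5. At 30 min it read 10.35, 10.51 and 10.51 in FRT/TSHR, against 10.83, 10.92 and 10.84 in FRTL5, and was lower by 0.41 on the log2 scale (-0.41 ± 0.09 SE, limma, adjusted p = 0.00269). This is a factor of 1.33, small beside the keratins but larger than the spread of the replicates. At 17 h the sign was turned, with 10.52, 10.54 and 10.69 in FRT/TSHR and 10.25, 10.51 and 10.42 in FRTL5, a difference of 0.19 that did not pass.

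Cd9, a tetraspanin found at cell contacts and on exosomes, was higher in FRT/TSHR at all 3 times. Its 2 probe sets share 1 source sequence and are not independent of each other. X76489cds_g_at read 10.02, 9.59 and 9.26 in basal FRT/TSHR, against 8.32, 8.18 and 8.43 in basal FRTL5. X76489cds_at read 9.59, 9.44 and 9.25 in basal FRT/TSHR, against 7.38, 7.94 and 7.76 in basal FRTL5. At 30 min the differences between the lines were 1.33 ± 0.18 (SE, limma, adjusted p = 4.18e-05) and 1.14 ± 0.24 (adjusted p = 0.00218), with no overlap between the groups on either probe set.

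Counted over the 12 probe sets, 10 were higher and 1 was lower in FRT/TSHR at 30 min, and 1, Tjp1, did not pass. Over all 8740 probe sets 11.3% were higher and 11.4% lower at that time, and the median difference was 3.17 over the 12 and 0.00 over all. The 30 min arrays are other hybridisations of the same lines, numbered in the same series as the basal ones, and no member was called between basal and 30 min in either line, so nothing about the members is read from this count. In the basal contrast, which the selection used, 10 were higher and 2 lower, beside 13.3% higher and 12.2% lower of all probe sets, with a median of 3.57 over the 12 and -0.04 over all. At 17 h, 10 were higher and 0 lower, beside 11.5% higher and 8.94% lower overall. The FRT/TSHR and FRTL5 groups did not overlap on any of the 12 probe sets at basal or at 30 min. At 17 h they overlapped on Tjp1 alone. How many of all probe sets did not overlap was not counted, so nothing about the members is read from this. Leaving out the 3 FRTL5 arrays numbered 1 left the number passing at 12 at basal, 11 at 30 min and 10 at 17 h.

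**Figure D2:**
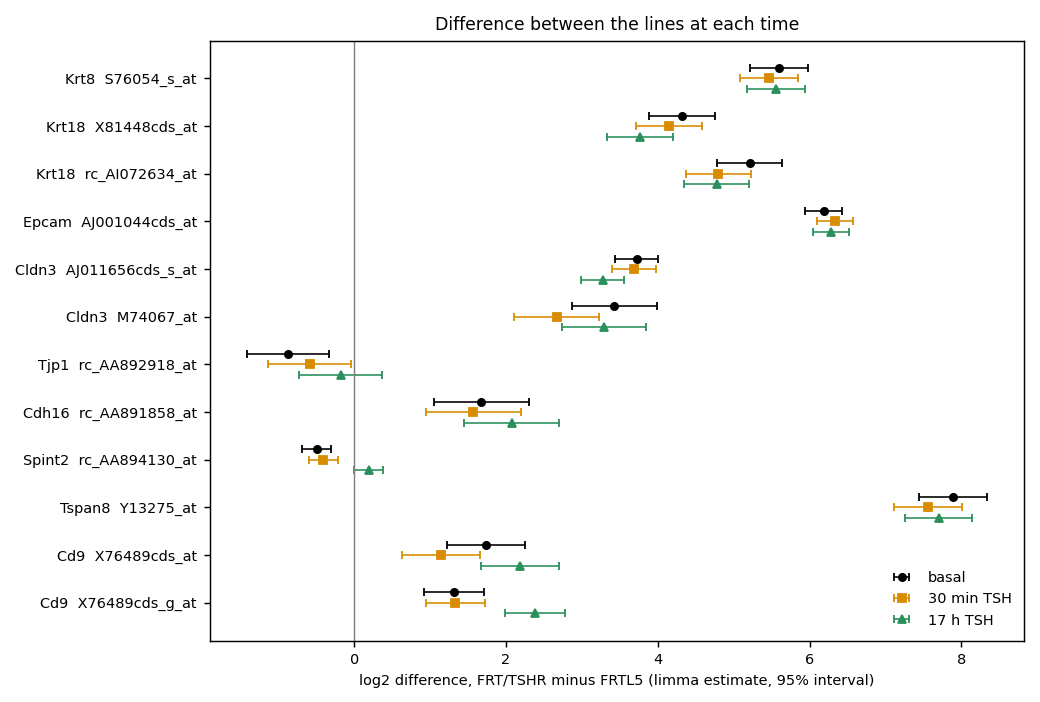
Log2 difference between the lines, FRT/TSHR minus FRTL5, for the 12 probe sets at basal (circles), 30 min (squares) and 17 h of TSH (triangles), with 95% intervals from the fit of all 18 arrays. Tspan8, Epcam, Krt8 and Krt18 lie furthest right, at 3.77 or more, and Spint2 is the only probe set whose estimate is below 0 at basal (-0.49) and above 0 at 17 h (0.19).

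After TSH, the calls were limited to Spint2 and Cd9, and both came from FRTL5. At 17 h there, a contrast that the selection used, Spint2 and the Cd9 probe set X76489cds_g_at passed as lower, beside 1.92% of all probe sets, and 0 of the 12 passed as higher, beside 1.64%. Spint2 read 10.25, 10.51 and 10.42 at 17 h, against 10.90, 10.99 and 11.01 at basal, a change of -0.57 or a factor of 1.49. Cd9 X76489cds_g_at read 6.92, 7.37 and 7.20 at 17 h, against 8.32, 8.18 and 8.43 at basal, a change of -1.15 or a factor of 2.22. In both cases the 17 h arrays all lay below the basal arrays, and the 30 min arrays lay near the basal ones, apart from replicate 3 of Cd9 at 7.75. The other Cd9 probe set gave -0.56 with overlapping groups and did not pass.

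For Tjp1 and 1 Cldn3 probe set the call in FRTL5 at 17 h depended on the fit. Tjp1 read 8.81, 8.07 and 8.26 at 17 h, against 9.57, 9.09 and 8.95 at basal, which gave -0.82 without overlap and did not pass. Cldn3 AJ011656cds_s_at read 6.79, 7.20 and 7.23 at 17 h, against 6.58, 6.82 and 6.82 at basal, which gave 0.33 and did not pass either. Cultures with the same number deviated together within a line, and with that number as a block both passed, so that 4 of the 12 were called in place of 2. Each numbered FRTL5 culture had a lower 17 h than basal value for Tjp1 (-0.76, -1.02 and -0.68), for Spint2 (-0.64, -0.48 and -0.59) and for Cd9 X76489cds_g_at (-1.40, -0.82 and -1.24), and a higher one for Cldn3 AJ011656cds_s_at (0.21, 0.39 and 0.40). Cdh16 was lower in each pair as well, with a mean change of -0.48 that did not pass in either fit. The share of all probe sets that ran 1 way in every pair was not counted. When only the 6 arrays of this contrast were fitted, 1 of the 12 passed, beside 96 of all 8740 probe sets, and Spint2 did not.

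**Figure D3:**
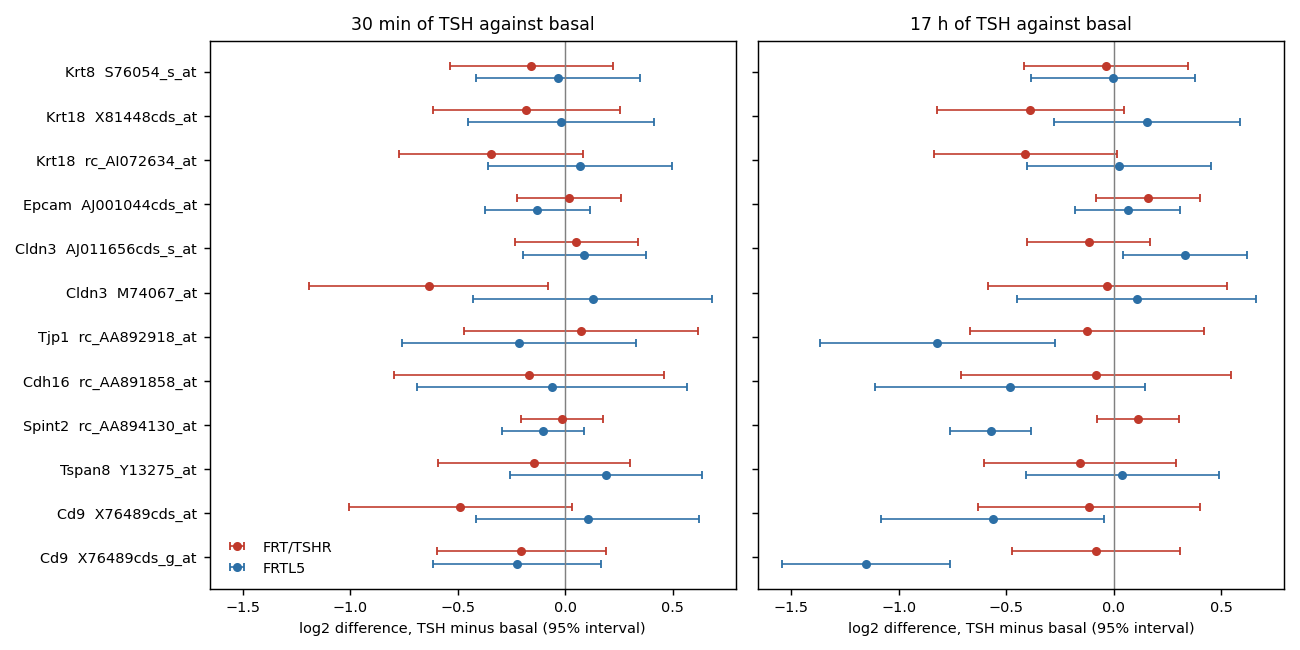
Log2 difference, TSH minus basal, of the 12 probe sets at 30 min (left panel) and 17 h (right panel) in FRT/TSHR (red) and FRTL5 (blue), with 95% intervals from the fit of all 18 arrays. At 17 h the FRTL5 estimates of Cd9 X76489cds_g_at (-1.15), Tjp1 (-0.82) and Spint2 (-0.57) lie left of 0, whereas those of Krt8 (0.00), Tspan8 (0.04) and Epcam (0.06) lie close to it.

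The keratins, Epcam and Tspan8 read low on all 9 FRTL5 arrays, with or without TSH. At 17 h the changes from basal were 0.00 for Krt8, with a 95% interval of -0.39 to 0.38, 0.06 for Epcam (-0.18 to 0.31) and 0.04 for Tspan8 (-0.41 to 0.49). For Krt18 they were 0.02 (-0.40 to 0.45) and 0.15 (-0.28 to 0.59). These values may lie near background in FRTL5, so a small change there could be missed.

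After 30 min of TSH none of the 12 probe sets passed in either line. In FRTL5 at 30 min 0 passed in limma and 0 had an unadjusted p under 0.05, beside 0.24% of all probe sets that passed. The changes ranged from -0.22 for Cd9 X76489cds_g_at to 0.19 for Tspan8. Tspan8 was the only one whose FRTL5 groups did not overlap, at 3.81, 3.65 and 3.70 at 30 min and 3.41, 3.59 and 3.60 at basal. Such low values may lie near background, and the share of all probe sets without overlap was not counted.

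FRT/TSHR gave no call at 17 h either. There 0 of the 12 passed in limma and 0 had an unadjusted p under 0.05, and at 30 min 0 passed while 1 had an unadjusted p under 0.05. With the replicate number as a block 0 passed at either time as well, and 2 members at 30 min (Cldn3 M74067_at and Cd9 X76489cds_at) and 1 at 17 h (Krt18 rc_AI072634_at) had an unadjusted p under 0.05. Of all probe sets 0% passed at 17 h and 0% at 30 min, where 108 and 208 had an unadjusted p under 0.05. The 1 member without the block was Cldn3 M74067_at, with a 30 min change of -0.64 ± 0.26 (SE, limma, adjusted p = 1), which the other Cldn3 probe set, at 0.05, did not share. Cd9 X76489cds_at gave -0.49 at 30 min, with 9.10, 9.22 and 8.50 against 9.59, 9.44 and 9.25 at basal, and did not pass although these groups did not overlap. At 17 h the changes ranged from -0.41 for Krt18 rc_AI072634_at (95% interval -0.84 to 0.02) to 0.16 for Epcam (-0.08 to 0.40). For Cd9 X76489cds_g_at the interval was -0.47 to 0.31 in FRT/TSHR and -1.54 to -0.76 in FRTL5. For Cd9 X76489cds_at it was -0.63 to 0.40 in FRT/TSHR and -1.08 to -0.05 in FRTL5. In the fit without the block, the difference between the 17 h changes of the lines did not pass on either Cd9 probe set. Spint2 was higher at 17 h in each pair of FRT/TSHR cultures, at 10.52, 10.54 and 10.69 against 10.43, 10.48 and 10.50 at basal. That change of 0.11 did not pass, although the groups did not overlap. Other members also ran 1 way in all 3 pairs without passing. How many of all probe sets did so was not counted, so no response is read from these signs. At 30 min Krt8 (-0.01, -0.04 and -0.43), both Krt18 probe sets (-0.16, -0.02 and -0.37 on X81448cds_at, -0.41, -0.33 and -0.30 on rc_AI072634_at) and Cd9 X76489cds_at (-0.48, -0.22 and -0.76) were below basal in each. At 17 h the pairs gave -1.01, -0.11 and -0.11 for Krt18 rc_AI072634_at, -0.21, -0.12 and -0.14 for Tspan8, and -0.11, -0.20 and -0.05 for Cldn3 AJ011656cds_s_at. Epcam was above basal at 17 h in each pair (0.24, 0.10 and 0.14).

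Set against each other, the 17 h changes of the lines differed for Spint2. The change in FRT/TSHR minus that in FRTL5 was 0.69 ± 0.13 (SE), and Spint2 was the 1 member that passed as higher, beside 0.309% higher and 0.481% lower of all probe sets. Since the FRTL5 side of this contrast served the selection, the value is a description. The call was lost with quantile normalization, with only the groups compared, with the trended robust fit and without the FRTL5 arrays numbered 1, where 0 of the 12 passed and Spint2 stood at 0.62 to 0.69. Cd9 X76489cds_g_at gave 1.07 ± 0.26 and Tjp1 gave 0.70 ± 0.36, and neither passed. With replicate number within line as a block, 3 passed (Spint2, Cd9 X76489cds_g_at and Tjp1), beside 365 of all 8740 probe sets. Leaving out FRT/TSHR basal replicate 1 made Cd9 X76489cds_g_at pass beside Spint2, at 1.27. The Cldn3 probe set AJ011656cds_s_at had the opposite sign, at -0.45, and did not pass.

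**Figure D4:**
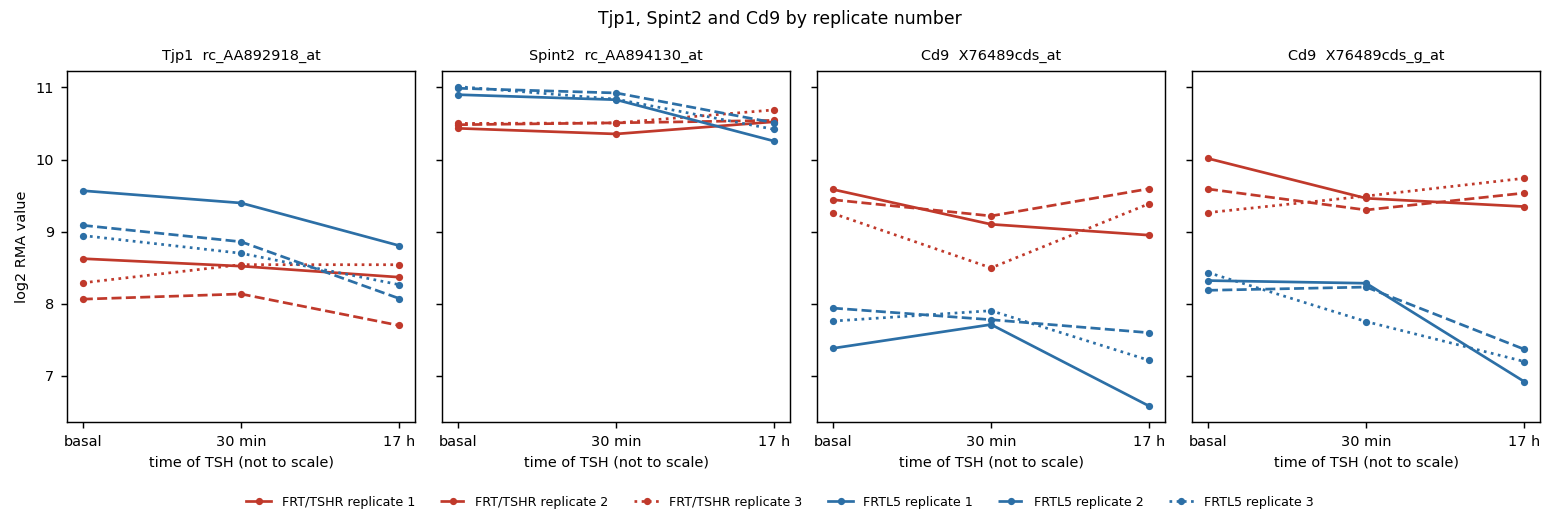
Log2 RMA values of Tjp1, Spint2 and the 2 Cd9 probe sets over time, with 1 line per numbered series of cultures in FRT/TSHR (red) and FRTL5 (blue) and times evenly spaced. The FRTL5 values of Spint2 lie between 10.25 and 10.51 at 17 h, against 10.90 to 11.01 at basal, while the FRT/TSHR values lie between 10.35 and 10.69 at all 3 times.

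Wider lists of epithelial genes were read for the same basal contrast, with 1 probe set per gene. Over all 4736 genes 14.8% were higher and 13.8% lower in FRT/TSHR. Of 7 other keratins measured, 2 were higher, Krt20 by 1.58 and Krt19, a keratin of simple and ductal epithelia, by 1.10, and 1 was lower, Krt10, a keratin of differentiating epidermis, at -1.11. The stratified-type keratins Krt5 (-0.13) and Krt14 (-0.12) did not pass. The list's median was -0.12, beside -0.04 over all genes.

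Of 8 further tight junction genes, 3 were higher and 1 lower, with a median of 0.35. Cldn7, a claudin that binds Epcam, was higher by 1.62 on AJ011811_g_at, and its other probe set passed too. Ocln (0.58) and Patj (0.63), a membrane protein and a scaffold of the tight junction, passed as higher, but Ocln lost its call without FRTL5 basal replicate 1 or 3 or FRT/TSHR basal replicate 1 or 2, with values of 0.48 to 0.71 over the 6 fits that left out 1 array. Its 2 other probe sets did not pass. Patj lost its call whichever of the 6 basal arrays was left out (0.54 to 0.68). Prkcz, an atypical protein kinase C of the polarity complex, was lower at -1.44.

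Of 6 adherens junction and desmosome genes measured, 0 were higher and 1 was lower, Nectin1 at -1.45, and Jup (plakoglobin) gave -0.05. No probe set named E-cadherin (Cdh1), so that gene was not measured here. Of 6 gap junction genes, 2 were higher, Gjb5 by 1.14 and Gja4 by 0.43, and 2 lower, Gjb1 at -0.98 and Gjb2 at -0.42. Gja4 lost its call without replicate 1 or 2 of either basal group, and Gjb2 without FRTL5 basal replicate 1 or 2 or any FRT/TSHR basal replicate. Over the 6 fits that left out 1 basal array Gja4 ran from 0.39 to 0.48 and Gjb2 from -0.57 to -0.34.

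Of 7 tetraspanins measured beside Tspan8 and Cd9, 0 were higher and 2 were lower, Cd81, a partner of Cd9 in tetraspanin complexes, at -2.13 and Tspan3 at -1.12. Among 13 other genes of the epithelial surface and its proteases, 7 were higher and 1 lower, with a median of 1.09. Prss8 (prostasin), a membrane-anchored protease, did not pass on the probe set used and was lower on its other one (-0.54). Muc1, a transmembrane mucin of the apical surface, was higher by 4.03, at 9.41 ± 0.31 in FRT/TSHR and 5.39 ± 0.14 in FRTL5 (SD, n = 3 each). Itgb4, the integrin of hemidesmosomes, was higher by 2.08, and Cd44, the hyaluronan receptor, by 2.00, with 2 of its 3 other probe sets passing the same way. Cd24, a lipid-anchored surface glycoprotein, was lower at -1.16.

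Of 4 epithelial transcription factors, Klf4 (1.25) and Ehf (0.66) were higher and Foxa2 (-1.34) lower. Mesenchymal markers moved both ways: of 21 measured, 2 were higher and 4 lower. S100a4, a calcium-binding protein of motile cells, was higher by 6.46 and Fn1 (fibronectin) by 2.29, with 2 of the 4 other Fn1 probe sets passing the same way. Cdh2 (N-cadherin) was lower at -1.22, Col5a1 at -0.96 and Zeb1, a repressor of epithelial genes, at -0.66. Pdgfra was lower at -0.62 on the probe set used, but its others, at 0.03, 0.12 and 0.02, did not pass. Zeb1 lost its call without FRT/TSHR basal replicate 1 (-0.55), and Col5a1 without replicate 2 or 3 of either basal group, with values of -1.16 to -0.79 over the 6 such fits. Vim (vimentin) gave 0.62 and did not pass. Sparc, a matrix glycoprotein, did not pass on the probe set used and was lower on 1 of its 3 others (-0.93). The median difference of the mesenchymal list was 0.04, beside -0.04 over all genes. Its mean log2 value, which includes S100a4, lay between 5.76 and 5.83 on the basal FRT/TSHR arrays and between 5.44 and 5.53 on the basal FRTL5 arrays.

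Markers of other cells of the thyroid gave 1 call. Of 8 C cell markers and 4 endothelial markers, 0 were higher and 0 lower between the basal lines, and of 9 leukocyte markers 0 were higher and 1, Lyz2 (-0.83), was lower. The mean log2 value of the C cell list was 4.77 to 4.92 on basal FRT/TSHR arrays and 4.71 to 4.82 on basal FRTL5 arrays. For endothelium it was 5.10 to 5.15 in FRT/TSHR and 5.06 to 5.31 in FRTL5, and for leukocytes 5.08 to 5.13 in FRT/TSHR and 5.17 to 5.27 in FRTL5. The part of any such cells in the differences was not tested. Cd14, a monocyte gene that did not pass, was higher on its other probe set (0.46).

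In FRTL5 at 17 h, the fit without the replicate block called 1 of the 101 genes of all these lists, each read from its probe set of highest mean. This was the iodide transporter gene Slc5a5, which was higher by 2.62, beside 1.86% higher and 2.26% lower of all genes. The junction gene Ocln did not pass on the probe set used (-0.32), but 1 of its other probe sets passed as lower in that fit. With the block, which pairs the numbered cultures within a line, 7 of the 101 were called, beside 4.29% higher and 6.57% lower of all genes. Slc5a5 was again the 1 that was higher. The 6 that were lower were the thyrocyte genes Tg (-0.64) and Pax8 (-0.80), a transcription factor of thyroid follicular cells, the junction genes Jup (-0.65) and Patj (-0.60), the tetraspanin gene Tspan3 (-0.41) and Pdgfra, a mesenchymal growth factor receptor gene (-0.43). Those 6 did not pass without the block, and each was read from its probe set of highest mean only.

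**Figure D5:**
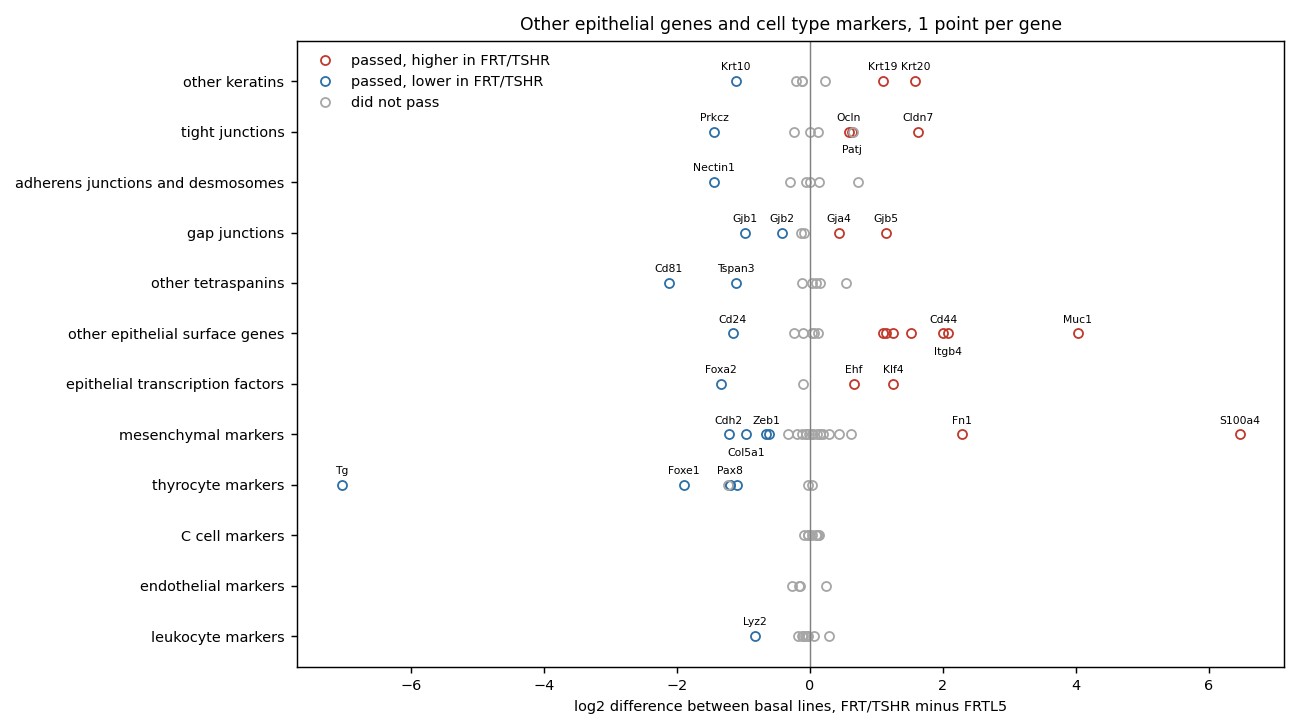
Log2 difference between the basal lines, FRT/TSHR minus FRTL5, with 1 point per gene in each of 12 lists. Genes that passed as higher are red, those that passed as lower are blue and the rest grey, and the points named are the 3 largest called in each direction. S100a4 (6.46) and Muc1 (4.03) stand furthest right, Tg (-7.04) furthest left, and no other tetraspanin lies right of 0 among those that passed.

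Profiles over the 18 arrays mainly followed the line. For Krt8, the genes with the highest Pearson r were S100a4 (0.998), Tspan8 (0.998) and Epcam (0.997), and for Epcam they were Tspan8 (0.997), Scd2 (0.997) and Krt8 (0.997). These points share their line, and 279 of 4735 genes had an r over 0.9 with Krt8. For Cd9 X76489cds_g_at the 3 most like genes were Ubxn1 (0.948), Myl12b (0.947) and Ric8a (0.947), and 52 genes exceeded 0.9.

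After each line's mean was subtracted, the most like genes changed. They were Lypd3 (0.859), Eno3 (0.844) and Oplah (0.828) for Krt8, Mapk12 (0.741), Dpm2 (0.737) and Cd47 (0.673) for Epcam, and Irf7 (0.915), Sfxn3 (0.903) and Pygb (0.901) for Cd9. Among the members themselves, the 9 FRTL5 arrays gave an r of 0.959 between Spint2 and Cd9 X76489cds_g_at, 0.950 between Cdh16 and Cd9 X76489cds_at, and -0.948 between Cldn3 AJ011656cds_s_at and Tjp1. In the 9 FRT/TSHR arrays the highest were 0.838 between the 2 Krt18 probe sets and 0.816 between Krt8 and Cdh16. The lowest there was -0.739, between Epcam and Cldn3 AJ011656cds_s_at. Probe sets of 1 gene did not always run together: the 2 of Krt18 gave -0.319 in FRTL5. The 2 of Cldn3 gave -0.258 in FRT/TSHR and 0.453 in FRTL5, and the 2 of Cd9 gave 0.464 and 0.719. Arrays of 1 line share their TSH times and numbered series, and these values are descriptions.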

How the data were processed

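Expression was measured in 6 groups of 3 arrays, and the deposited table held log2 values per probe set that the authors made with RMA, per the submitters' processing notes. RMA corrects background, normalizes across arrays and summarizes probes (version and settings not given in the sources used here). Scanner files were not analysed here. Values ran from 2.61 to 13.6 with array medians of 5.47 to 5.58. Of 8799 probe sets, 59 controls were left out and 8740 tested, with no filter on low signal. By the platform annotation 7006 probe sets had 1 symbol, 308 had several and 1426 had none. Those with several were left unnamed, and 6985 of the 7006 matched the RefSeq table by gene number. No build was named for the probe sets, so their coordinates are not printed. Each gene of a list was read from its probe set of highest mean.

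Differences were fitted with limma 3.58.1 in R 4.3.3 (lmFit and eBayes, 6 group means, 18 arrays, 12 residual degrees of freedom). All tests were two-sided. Benjamini-Hochberg adjustment covered the 8740 probe sets of each of 8 comparisons, and an adjusted p under 0.05 was a call. The code was tested on simulated data. Precision is limited by the number of arrays. The members, the gene lists and the rule for named genes were chosen with earlier results of these data known. Named genes were all member probe sets, the 3 largest called genes of each list in each direction at basal, up to 2 in each direction at 17 h in FRTL5, and the 3 genes most like Krt8, Epcam and Cd9; other genes were named after their values were seen.

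Replicate numbers were taken from the sample titles. Within a line, the deviations of same-numbered arrays from their group means correlated at 0.148 to 0.798 over all 18 pairs (median 0.449). The 36 pairs with different numbers ran from -0.639 to 0.628 (median -0.293). Numbers were taken as pairing cultures within a line, but less clearly so for FRTL5 numbers 2 and 3. FRTL5 30 min replicate 2 correlated at 0.628 with 17 h replicate 3 and at 0.233 with 17 h replicate 2. FRTL5 30 min replicate 3 correlated at 0.611 with 17 h replicate 2 and at 0.148 with 17 h replicate 3. Across lines the 27 same-numbered pairs ran from -0.217 to 0.420 (median 0.184). The 54 pairs with different numbers ran from -0.367 to 0.501 (median -0.145). The medians thus lay in the same order as within a line. Same-numbered cultures were not taken as paired across lines, and whether they were paired was not tested. No 2 arrays held the same profile, the highest share of identical values being 0.0229%. Alternatives were a replicate block, only the groups compared, median centring, quantile normalization, only probe sets above the median mean, eBayes with trend and robust settings, leaving out the FRTL5 arrays numbered 1, and leaving out each array.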

Additional observations from a re-analysis of the deposited data

Results flagged for a closer look

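Spint2 is listed because its 17 h change differed between the lines: the change in FRT/TSHR minus that in FRTL5 was 0.69 ± 0.13 (SE, limma fit of 18 arrays). Spint2 was higher at 17 h than at basal in each of the 3 FRT/TSHR pairs (0.09, 0.06 and 0.19) and lower in each of the 3 FRTL5 pairs (-0.64, -0.48 and -0.59). The FRTL5 change was known when the gene was chosen, and TSH dose and medium differed with the line. The 5' to 3' controls of FRTL5 replicate 1 stood apart, and without those 3 arrays the difference was 0.65 and did not pass (limma, adjusted p = 0.0504). It did not pass either with quantile normalization (0.62), with only the groups compared (0.69) or with trend and robust settings (0.69).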

How the results depend on the processing

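Of the 12 probe sets, the number called between the lines was 12 at basal (11 to 12 over the fits that left out 1 array). At 30 min it was 11, and 11 in each of those fits, and at 17 h it was 10 under each alternative. The 30 min count became 12, with Tjp1 added, under quantile normalization or with replicate number as a block. Numbers were not taken as pairing cultures across lines. No called value changed sign. In FRTL5 at 17 h the count of 2 became 4 with the replicate block and 1 with only the groups compared, and was 2 in every fit that left out 1 array. For the difference of the 17 h changes, the count of 1 became 3 with the replicate block, and 0 with only the groups compared, with quantile normalization, with trend and robust settings and without the FRTL5 arrays numbered 1, where 2, 3, 2 and 4 of the 12 had an unadjusted limma p under 0.05. Fits that left out 1 array gave 1 to 2. The cause was not tested. The block moved no other count of members called by over 1.5 times.

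Over all probe sets, the FRTL5 17 h count of 311 was 867 with the block, 96 with only the groups compared and 152 to 253 with 1 array left out. The count of 21 in FRTL5 at 30 min was 40 with the block, 2 with only the groups compared, 45 without the FRTL5 arrays numbered 1 and 12 to 44 with 1 array left out. The count of 69 for the difference of the 17 h changes was 365 with the block, 22 with only the groups compared and 33 to 83 with 1 array left out. FRT/TSHR gave 0 at both times under every alternative. Low values in FRTL5 may be background, which limits each fold against them.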
